A study of Mus musculus with 23 samples.

Results

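The 11 single mouse mesenchymal stem cells (mMSCs) described here form a pair of clusters out of the 16 single mMSCs and 23 libraries measured by RNA-seq in the series. The green cluster holds 5 cells (mMSC1, mMSC4, mMSC8, mMSC11 and mMSC14) and was named proliferating, and the purple cluster holds 6 cells (mMSC2, mMSC3, mMSC7, mMSC10, mMSC12 and mMSC13) and is called quiescent here. The study formed its clusters by hierarchical clustering of the genes that differed between the cells, so the members were chosen by the expression values of these same cells. For this reason every difference between green and purple cells is given as a description of 11 cells, without a test. The 5 mMSCs of the other clusters, the mMSC population control (mMSC-PC, a bulk library) and the 5 single HL-1 cardiomyocytes (HL1cm, a mouse atrial muscle line) serve only as reference points.

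All 11 cells came from bone marrow MSCs of strain C57BL/6J, purchased, taken from 3-month-old male mice by the study's methods, and used at passages 6 to 11. Green and purple cells received the same handling. They were grown on gelatin in alpha-MEM with fetal bovine serum, detached with trypsin and captured on a microfluidic C1 chip. No treatment, genotype or time point separates the clusters, and no separate cultures or animals are named, so the 16 mMSCs count as 1 sample of this cell type. Values are FPKM, the number of sequenced fragments scaled by transcript length and by the mapped fragments of the library. Differences are between mean log2 FPKM with values under 1 FPKM set to 1, and green minus purple unless stated. The range given with a difference or a list median is the one found when each of the 11 cells was left out in turn. It shows how much single cells weigh and is not a confidence interval.

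A dividing cell passes through a fixed order of phases. In late G1 and S phase, genes of the E2F factors supply the MCM helicase, the replication fork and the deoxynucleotides, and in G2 and mitosis a later set of genes supplies cyclin B, the mitotic kinases, the spindle and the machinery that separates the daughter cells. Cells that have left the cycle, or that rest in G1, lack most of these transcripts. In G0 and early G1 the DREAM complex holds both sets of genes low, and promoters of the later set often carry a CCAAT box and a cell cycle homology region (CHR). A quiescent state is also often accompanied by inhibitors of the cyclin-dependent kinases, such as p21 (Cdkn1a), p27 (Cdkn1b) and p57 (Cdkn1c).

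Of 9150 genes with 3 or more of the 11 cells at 1 FPKM or above, 1560 (17.0%) had a mean log2 FPKM at least 1 higher in the green cells and 1147 (12.5%) at least 1 higher in the purple cells. Most of these genes overlapped between the clusters. Every green cell was above every purple cell for 142 genes (1.55% of those tested), and every purple cell above every green cell for 24 genes (0.262%). These counts depend on the number of cells: with any 1 of the 11 left out they were 154 to 195 and 30 to 44. On this scale the green cells were set apart by more genes, with a median difference of 3.82 over the 142 genes and of -2.05 over the 24. Of the 142 genes, 31 were listed at 0 in all purple cells, and of the 24, 3 were listed at 0 in all green cells. The median difference over all genes tested was 0.03. When the values of each library were instead made to add up to one total, which gives very short RNAs a large weight, this median moved to -0.54 and the share of green genes among those at least 1 higher fell from 57.6% to 23.8%. The genes without overlap then numbered 73 with green above purple and 105 with purple above green, so the order of these counts turned. Directions are given on the deposited FPKM scale, and genes that lie close to the median of all genes are not given a direction.

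**Figure D1:**
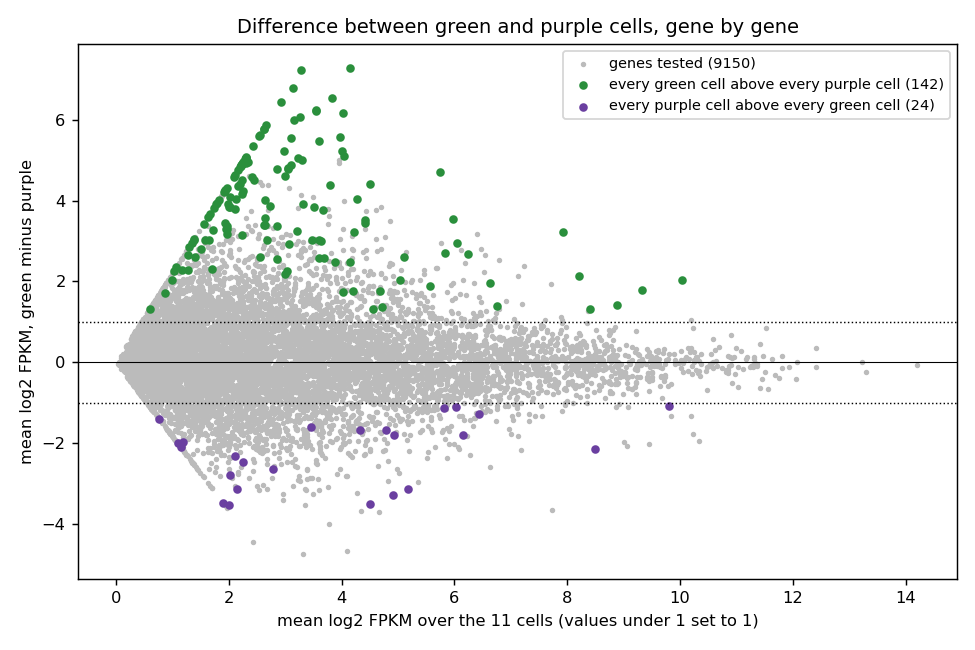
Difference in mean log2 FPKM between green and purple cells (vertical axis, green minus purple) against the mean log2 FPKM over the 11 cells (horizontal axis) for 9150 genes tested, with values under 1 FPKM set to 1. Green points are the 142 genes for which every green cell was above every purple cell, purple points the 24 genes for the opposite order, and dotted lines mark a difference of 1 in either direction; the green points reach 7.27 and the purple points -3.52.

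The lowest values limit what these libraries show. The files hold no read counts, so depth is not known from them. The 1st percentile of the values above 0, an indirect sign of depth that is higher in a shallower library, ran from 0.379 to 0.810 FPKM in the green cells and from 0.357 to 0.504 FPKM in the purple cells, with mMSC1 and mMSC8 highest. Genes at 1 FPKM or more numbered 6814 to 7169 per green cell and 6490 to 7151 per purple cell. A listed 0 can also be a missed transcript: Canx, an endoplasmic reticulum chaperone, was listed at 0 in mMSC12 and at 973 to 1991 FPKM in the other cells. Gapdh, a glycolytic enzyme, had 178 to 227 FPKM in the green cells and 160 to 249 FPKM in the purple cells (difference 0.08, range 0.02 to 0.15), which moved to -0.71 when each library was made to add up to one total. None of 12 household genes was at least 1 higher in either cluster.

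The label proliferating held for its defining markers. Top2a, which untangles DNA for chromosome segregation, had 44.0, 189, 126, 204 and 133 FPKM in mMSC1, mMSC4, mMSC8, mMSC11 and mMSC14. In the purple cells the lowest value was 0, the median 0.361 and the highest 9.79 FPKM, in mMSC2. Mki67, a protein coating mitotic chromosomes, had 10.6, 29.5, 29.0, 19.9 and 17.7 FPKM in the green cells and was listed at 0 in all 6 purple cells. The clusters did not overlap for either marker, and mMSC1 was the lowest green cell for both. Both markers were in the clustering, so this is a check of the label and not a separate result. Mesenchymal markers were present in both clusters: 7 or 8 of 8 (Vim, S100a4, Col1a1, Col1a2, Col3a1, Pdgfrb, Sparc and Fn1) were at 1 FPKM or more in every one of the 11 cells, and their mean log2 FPKM was 6.16 to 7.65 in the green cells and 6.85 to 7.76 in the purple cells.

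Markers of other cell types were low, though not absent. The summed FPKM of 10 macrophage markers was 45.2 to 87.2 in the green cells and 3.10 to 230 in the purple cells, with 1 or 2 of the 10 markers at 1 FPKM or more in any of these cells. For 9 cardiomyocyte markers the sums were 0 to 18.9 FPKM in the green cells and 0 to 40.8 FPKM in the purple cells, against 3803 to 10694 FPKM in the single HL1cm. Tnnt2, a troponin of heart muscle, was above 0 in mMSC4, mMSC10, mMSC12 and mMSC13. The 6 endothelial markers summed to 0 in all 11 cells except mMSC13 with 10.8 FPKM. Of the 6 adipocyte markers, Fabp4 alone was seen, at 181 FPKM in mMSC11, 53.9 FPKM in mMSC12 and 15.4 FPKM in mMSC13. Their part in the differences below was not tested.

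The promoters of the leading genes are shown here as a description. The genes were picked by the same values that formed the clusters, so their sequences give no separate support for the clusters. Windows are the 250 bases before the start of the gene in RefSeq, build GRCm38.p6 (the same build as mm10), written 5′ to 3′ on the strand of the gene. Capitals mark matches, on either strand, to the letters of the CHR (TTTGAA), of the CCAAT box, of a pair of E2F-type sites (the first site being TTCGCGC and the second site being TTGGCGC) and of the E-box (CACGTG). On the opposite strand a CCAAT box reads ATTGG and the CHR reads TTCAAA. Birc5 and 2810417H13Rik (Pclaf in RefSeq) led the genes of the green cells that have such a window. Pbk, whose difference lay between theirs, had none. Kdm5b and Igfbp7 led the purple cells, and Cdk1 and Top2a were added after their matches were seen. Each window ends at the base before the start of the annotated transcript, and that of Top2a also overlaps the outer edge of the longest annotated transcript.
Birc5, chr11:117848987-117849236, plus strand: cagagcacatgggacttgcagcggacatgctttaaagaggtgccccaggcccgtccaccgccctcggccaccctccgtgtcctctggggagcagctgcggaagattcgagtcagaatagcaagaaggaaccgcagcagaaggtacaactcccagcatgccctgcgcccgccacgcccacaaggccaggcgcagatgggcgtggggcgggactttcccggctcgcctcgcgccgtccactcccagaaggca
2810417H13Rik, chr9:65890073-65890322, plus strand: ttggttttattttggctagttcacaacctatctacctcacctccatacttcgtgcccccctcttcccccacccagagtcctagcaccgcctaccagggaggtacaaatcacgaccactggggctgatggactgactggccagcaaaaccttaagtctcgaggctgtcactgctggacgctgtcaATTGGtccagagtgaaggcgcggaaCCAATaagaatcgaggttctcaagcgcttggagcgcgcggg
Top2a, chr11:99024190-99024439, minus strand: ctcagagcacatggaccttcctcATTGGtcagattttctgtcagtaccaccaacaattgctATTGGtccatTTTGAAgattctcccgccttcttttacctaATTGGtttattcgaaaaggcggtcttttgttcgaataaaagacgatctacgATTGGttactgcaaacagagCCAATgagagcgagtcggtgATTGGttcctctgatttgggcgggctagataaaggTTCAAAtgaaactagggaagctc
Cdk1, chr10:69352913-69353162, minus strand: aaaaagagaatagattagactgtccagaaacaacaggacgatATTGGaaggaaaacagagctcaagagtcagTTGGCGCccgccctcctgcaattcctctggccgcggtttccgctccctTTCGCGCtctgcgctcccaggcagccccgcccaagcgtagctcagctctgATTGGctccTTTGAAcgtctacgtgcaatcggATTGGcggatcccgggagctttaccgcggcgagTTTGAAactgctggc
Kdm5b, chr1:134559928-134560177, plus strand: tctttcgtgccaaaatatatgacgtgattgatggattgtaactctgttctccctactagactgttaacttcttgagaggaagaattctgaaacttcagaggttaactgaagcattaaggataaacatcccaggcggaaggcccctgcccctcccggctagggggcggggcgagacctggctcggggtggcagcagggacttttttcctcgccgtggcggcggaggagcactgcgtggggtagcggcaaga
Igfbp7, chr5:77408046-77408295, minus strand: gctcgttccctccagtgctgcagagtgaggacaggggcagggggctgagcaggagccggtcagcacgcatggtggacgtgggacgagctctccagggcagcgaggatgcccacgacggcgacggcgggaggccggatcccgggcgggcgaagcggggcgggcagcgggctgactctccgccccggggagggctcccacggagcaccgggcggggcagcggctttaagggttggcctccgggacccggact

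Top2a carried 6 CCAAT boxes, at 54 to 227 bases before the start, and 2 CHR matches, the nearer one at 18 to 23 bases. Cdk1 carried 3 CCAAT boxes, 2 CHR matches at 10 to 15 and 66 to 71 bases before the start, and both E2F-type sites. 2810417H13Rik had 2 CCAAT boxes, at 37 to 41 and 62 to 66 bases, and Birc5, Kdm5b and Igfbp7 had none of the 5 motifs in this window.

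Over all genes of which every green cell was above every purple cell, 116 of 142 matched a RefSeq promoter. Of these, 73 (62.9%) held a CCAAT box, against 37.0% of the 7309 tested genes with a promoter and 34.5% of all 27025 genes with one. A CHR match was present in 32 (27.6%), against 11.0% and 16.3%. Both together were present in 25 (21.6%), against 4.32% and 5.73%, and either E2F-type site in 13 (11.2%), against 6.46% and 3.23%. The E-box was present in 8 (6.90%), against 8.73% and 6.05%. Of the genes in the opposite order, 19 of 24 matched, of which 4 (21.1%) held a CCAAT box, 1 (5.26%) a CHR match, and none an E2F-type site or an E-box. These shares describe letters in a window and were not tested. Of the 142 genes, 81 are in the 6 proliferation lists described below, so the shares cannot be told apart from the choice of genes.

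The 6 proliferation lists, for replication licensing, the replication fork, nucleotide synthesis, mitotic cyclins and kinases, the spindle with kinetochore and cytokinesis, and chromatin, held 168 genes. Of these, 162 passed the limit on low values, with a median difference of 3.08. At least 1 higher in the green cells were 148, and none in the purple cells, against 17.0% and 12.5% of all genes tested. All green cells were above all purple cells for 81 of them, against 1.55% of all genes tested. This leaves 61 of the 142 genes outside every list. Green cells had 151 to 155 of the 168 genes at 1 FPKM or more. Purple cells had 65 (mMSC2), 65 (mMSC3), 72 (mMSC7), 82 (mMSC10), 55 (mMSC12) and 64 (mMSC13). A gene low in all purple cells could pass the limit only through the green cells, so these counts describe the clusters and are no support for them.

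**Figure D2:**
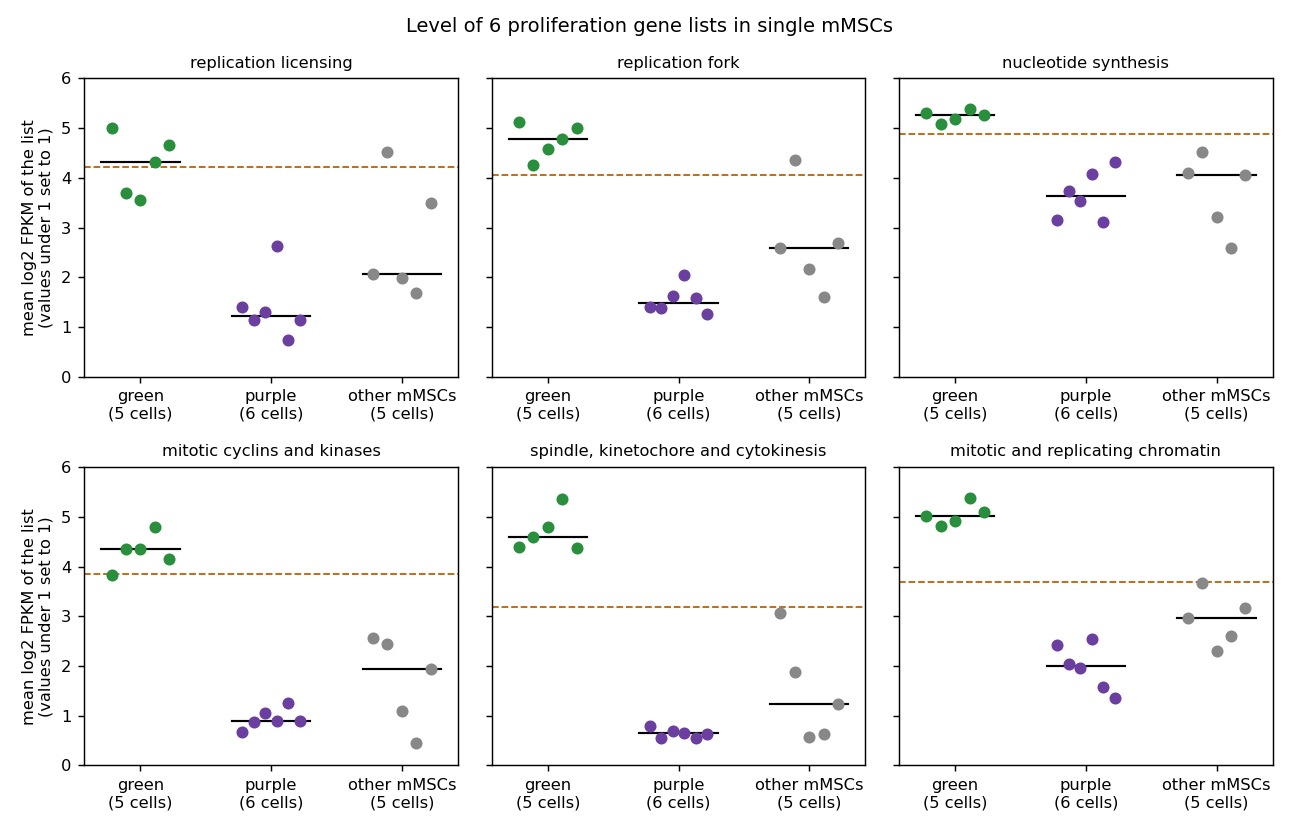
Level of each of the 6 proliferation lists in single mMSCs, as the mean log2 FPKM over all genes of the list with values under 1 FPKM set to 1 (vertical axis), for green cells, purple cells and the 5 mMSCs of other clusters. Each point is 1 cell, black lines are medians and the dashed line is the population control; green and purple cells did not overlap in any of the 6 lists, and the distance was smallest for nucleotide synthesis (lowest green cell 5.08, highest purple cell 4.32).

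Replication licensing loads the MCM helicase onto DNA before S phase. All 16 licensing genes over the limit (100%, against 17.0% of all genes tested) were at least 1 higher in the green cells. Their median difference was 3.29 (range 3.20 to 3.69). Mcm3 had 82.1, 27.7, 55.2, 78.6 and 121 FPKM in the green cells, in the order mMSC1, mMSC4, mMSC8, mMSC11 and mMSC14, and 0 to 20.9 FPKM in the purple cells, with a median of 0. Mcm2 had 23.5, 13.7, 22.4, 21.9 and 55.5 FPKM in the green cells and was above 0 in 1 purple cell, mMSC10, at 2.23 FPKM. Not every MCM subunit was separate: Mcm5, Mcm6 and Mcm7 differed by 3.07, 2.2 and 4.09, but at least 1 purple cell overlapped the green cells in each, with 17.1 FPKM of Mcm5 in mMSC13, 40.3 FPKM of Mcm6 in mMSC2 and 33.9 FPKM of Mcm7 in mMSC2. Mcm4 was separate (58.2 to 136 FPKM in green cells), and mMSC10 was again highest among the purple cells with 37.3 FPKM. Gmnn, which blocks relicensing until mitosis is over, had 82.9 to 182 FPKM in the green cells and was above 0 in only 1 purple cell, mMSC10, at 20.6 FPKM.

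At the replication fork, 26 of 28 genes (92.9%, against 17.0% of all genes tested) were at least 1 higher in the green cells. The list median was 3.13 (range 3.05 to 3.67), and the exceptions were Pole and Rfc1. Prim1, the primase that starts each new strand, had 58.2, 41.5, 141, 142 and 104 FPKM in the green cells and was listed at 0 in all purple cells. Rfc4, part of the loader of the sliding clamp, had 48.1 to 129 FPKM in the green cells and was above 0 in 1 purple cell (5.86 FPKM in mMSC3). The clamp itself behaved differently. Pcna was detected in all 11 cells, with 436, 209, 146, 269 and 562 FPKM in the green cells and 27.2 FPKM (lowest), 41.3 FPKM (median) and 161 FPKM (highest, mMSC13) in the purple cells. Its difference was 2.52 (range 2.28 to 2.86), and mMSC13 lay above the lowest green cell, mMSC8. The table lists Pclaf, which binds the clamp, as 2810417H13Rik; it had 102, 81.6, 114, 106 and 205 FPKM in the green cells and at most 1.13 FPKM in a purple cell. Uhrf1 and Dnmt1, which copy DNA methylation to the new strand, had 47.9 to 226 and 11.6 to 42.0 FPKM in the green cells and at most 23.7 and 7.98 FPKM in the purple cells, the highest of both being mMSC10.

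Nucleotide synthesis differed the least of the 6 lists (median 1.47, range 1.14 to 1.74). In the green cells 14 of 23 genes (60.9%, against 17.0% of all genes tested) were at least 1 higher. Genes used for deoxynucleotides were among the 14. Tk1, the S phase thymidine kinase, had 238, 125, 123, 196 and 196 FPKM in the green cells and was listed at 0 in all purple cells but mMSC13, at 36.2 FPKM. Rrm2, the regulated subunit of ribonucleotide reductase, had 1058, 779, 703, 921 and 697 FPKM in the green cells. It stayed detectable in every purple cell, at 11.5 FPKM (lowest), 125 FPKM (median) and 253 FPKM (highest), so that the medians of the clusters differed 6.23-fold. Rrm1, the large subunit, differed by 3.75 (27.5 to 84.0 against 0 to 18.5 FPKM). The 9 genes that did not differ by 1 include general purine and pyrimidine enzymes such as Gart, Cad, Gmps, Atic and Ctps, which were named after their values were seen.

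Among mitotic cyclins and kinases, 24 of 27 genes (88.9%, against 17.0% of all genes tested) were at least 1 higher in the green cells. The list median was 3.03 (range 2.99 to 3.55). Ccnb1, the cyclin that drives entry into mitosis, had 15.4, 103, 89.2, 49.6 and 71.7 FPKM in the green cells and was listed at 0 in all purple cells. Its partner kinase Cdk1 had 143, 136, 132, 182 and 74.5 FPKM in the green cells and 0 to 6.06 FPKM in the purple cells, with a median of 3.35 FPKM, a 40.5-fold difference of medians. Ccna2, the cyclin of S and G2 phase, was lower and closer, with 15.2 to 62.8 FPKM against 0.940 to 11.0 FPKM. The mitotic kinases Aurka (31.2 to 66.8 FPKM), Aurkb (14.1 to 97.9 FPKM) and Bub1 (7.42 to 45.0 FPKM) were listed at 0 in every purple cell. Pbk, a kinase of mitotic cells, had 104 to 232 FPKM in the green cells and was also listed at 0 in every purple cell. Ube2c, which tags cyclins for destruction at the end of mitosis, had 89.9 to 407 FPKM in the green cells, and in the purple cells was above 0 in mMSC12 (24.4 FPKM) and mMSC13 (6.68 FPKM).

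The spindle list was the most separate of the 6. All 43 genes over the limit (100%, against 17.0% of all genes tested) were at least 1 higher in the green cells. The list median was 4.37 (range 4.17 to 4.42). Of the 43 genes, 32 had every green cell above every purple cell, against 1.55% of all genes tested. Birc5, the survivin subunit of the chromosomal passenger complex, had the largest difference of all 9150 genes, 7.27 (range 7.05 to 7.84). It had 249, 191, 515, 265 and 261 FPKM in the green cells and 0 FPKM (lowest), 1.03 FPKM (median) and 13 FPKM (highest, mMSC7) in the purple cells. Its partners followed: Incenp had 13.9 to 76.4 FPKM and Cdca8 10.7 to 86.2 FPKM in the green cells, and both were listed at 0 in all purple cells. The kinetochore genes Nuf2 (47.8 to 146 against 0 to 3.79 FPKM), Ndc80 (20.0 to 83.8 FPKM against 0) and Cenpm (34.1 to 70.5 FPKM against 0) had the same order, as did Tacc3 of the spindle (43.1 to 92.0 FPKM against 0) and Cep55 of the final cut between daughter cells (19.6 to 105 FPKM against 0). Kif11, the motor that pushes spindle poles apart, was the most even of these in the green cells, at 32.8, 29.2, 33.5, 31.3 and 32.8 FPKM. Ckap5, a microtubule polymerase also used outside mitosis, was close by comparison, with 30.2 to 74.7 FPKM against 4.36 to 28.1 FPKM.

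**Figure D3:**
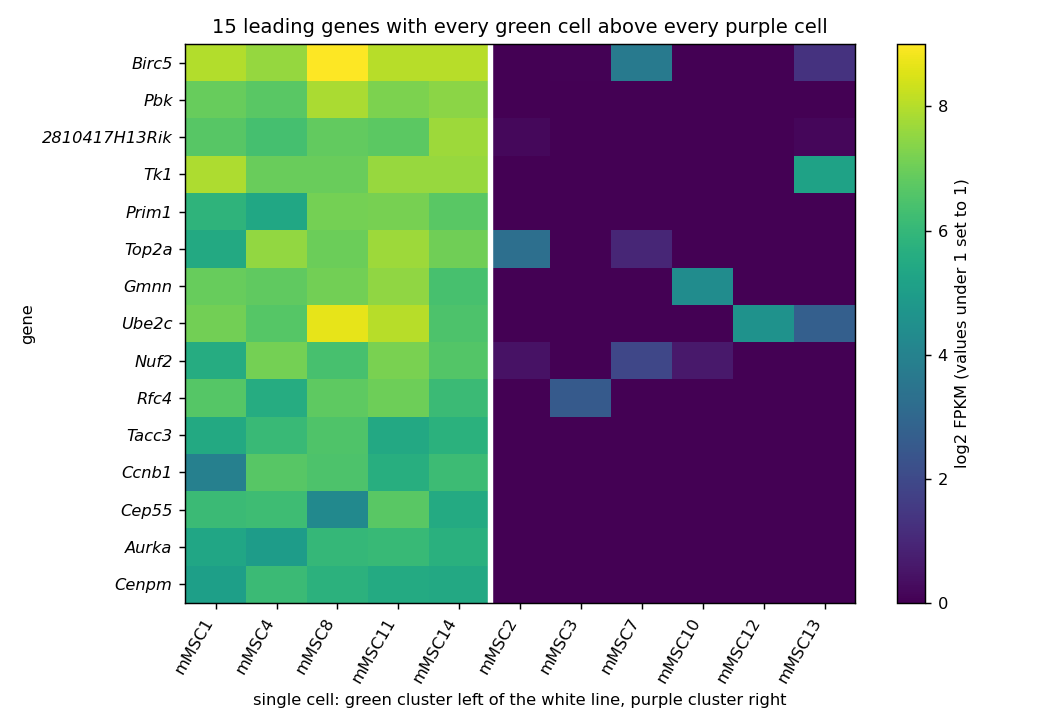
Heat map of log2 FPKM (colour, values under 1 FPKM set to 1) of the 15 genes with the largest difference among those for which every green cell was above every purple cell; rows are genes and columns are the 5 green and 6 purple cells. The darkest squares are values at or under 1 FPKM, and Pbk, Prim1, Tacc3, Ccnb1, Cep55, Aurka and Cenpm were listed at 0 in all 6 purple cells.

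All 25 chromatin genes over the limit (100%, against 17.0% of all genes tested) were at least 1 higher in the green cells. Their median difference was 2.65 (range 2.53 to 3.32). This list also holds abundant proteins that resting cells keep. H2afz, a histone variant made throughout the cycle, had 1292, 3682, 1714, 2530 and 2971 FPKM in the green cells and 379 FPKM (lowest), 545 FPKM (median) and 744 FPKM (highest) in the purple cells, a 4.64-fold difference of medians. Hmgb1, a DNA-bending protein, had 688 to 1011 FPKM against 201 to 471 FPKM. Ezh2, which methylates histone H3, had 33.4 to 74.6 FPKM in the green cells and was above 0 in 2 purple cells, mMSC7 and mMSC10.

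The 142 genes selected for having no overlap (1.55% of those tested) include 61 that are in none of the lists. Among those with every green cell above every purple cell, and named after their values were seen, were the tubulins Tubb5 (difference 1.79) and Tuba1b (1.38), the nuclear import factor Kpna2 (2.13; medians of 768 and 127 FPKM), the cohesin subunits Rad21 (2.47) and Smc3 (2.58), and Fam111a, which works at the replication fork (5.47).

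Green cells differed among themselves in how far replication and mitosis genes stood apart. The licensing list was at 5.01 in mMSC1, 3.69 in mMSC4, 3.56 in mMSC8, 4.31 in mMSC11 and 4.67 in mMSC14 (mean log2 FPKM). For the spindle list the values were 4.40, 4.60, 4.80, 5.35 and 4.37 in the same order. In mMSC1 and mMSC14 the licensing list was above the spindle list, and in mMSC4, mMSC8 and mMSC11 it was below. Single genes did not all follow this. Pcna and Uhrf1 were highest in mMSC1 and mMSC14, and Ccnb1 and Top2a lowest in mMSC1. Ccna2, the cyclin of S and G2 phase, was highest in mMSC14 (62.8 FPKM). In contrast, the licensing genes Gmnn (82.9 FPKM) and Gins2 (56.6 FPKM) were lowest in mMSC14. The mitotic gene Bub1 was highest in mMSC14, and Plk1 (53.8 FPKM) was highest in mMSC1. Aurkb reached 97.9 FPKM in mMSC11 against 14.1 to 20.0 FPKM in the other green cells. With 5 cells, this split is a description only.

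**Figure D4:**
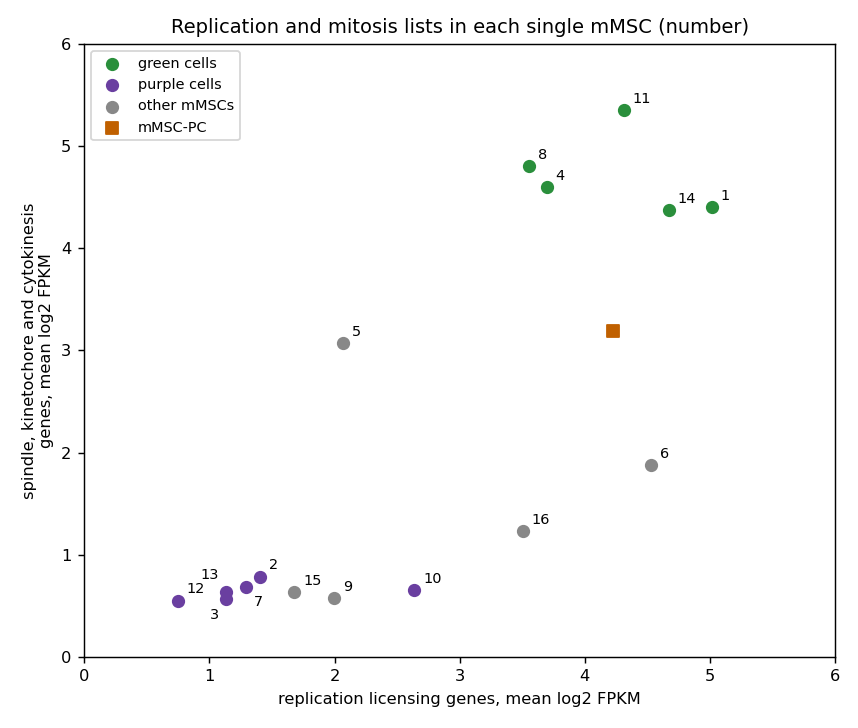
Mean log2 FPKM of the spindle, kinetochore and cytokinesis list (vertical axis) against that of the replication licensing list (horizontal axis) in each single mMSC, labelled by its number, and in the population control (square). The 5 green cells lie at the upper right (3.56 to 5.01 and 4.37 to 5.35), and purple cells lie at 0.55 to 0.78 on the vertical axis. Of the other clusters, mMSC6 and mMSC16 lie near the green cells for licensing (4.53 and 3.50). For the spindle list they lie between the purple and the green cells (1.88 and 1.23).

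Among the purple cells, mMSC10 stood out for replication licensing. The licensing list ran from 0.75 in mMSC12 to 2.63 in mMSC10, with the other purple cells at or under 1.40. The spindle list ran from 0.55 to 0.78 (median 0.65), a measure held down by the limit of 1 FPKM, since only 7 to 13 genes of the list were at 1 FPKM or more in a purple cell. Summed without that limit, the list ran from 88.0 FPKM in mMSC3 to 237 FPKM in mMSC12, and the mitotic cyclins and kinases from 138 FPKM in mMSC13 to 630 FPKM in mMSC10. In mMSC10 Mcm2, Mcm3, Mcm4 and Gmnn were all above 0, its spindle list was at 0.65, and Ccnb1, Aurka and Mki67 were listed at 0. The mMSCs of the other clusters filled some of the space between. Among the 3 cells of the blue cluster, mMSC6 had a licensing level of 4.53 and a spindle level of 1.88, mMSC16 had 3.50 and 1.23, and mMSC5 had 2.07 and 3.07. The remaining cells, mMSC9 (2.00 and 0.58) and mMSC15 (1.68 and 0.63), lay near the purple cells. The population control had 4.22 and 3.19; in such a bulk library, fewer cycling cells and less RNA per cycling cell cannot be told apart.

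The inhibitors p21, p27 and p57 were not at least 1 higher in the purple cells. Cdkn1a (p21) had 79.6, 59.0, 53.0, 71.9 and 153 FPKM in the green cells and 24.0 FPKM (lowest), 32.1 FPKM (median) and 60.4 FPKM (highest) in the purple cells. Its difference was 1.15 toward the green cells (range 0.91 to 1.31), and 0.36 when each library was made to add up to one total. The clusters overlapped, since mMSC2 at 60.4 FPKM was above mMSC4 and mMSC8. Cdkn1b (p27) was low in both clusters, with 0 to 15.7 against 0 to 9.0 FPKM. It differed by 1.09 toward the green cells (range 0.77 to 1.77), and by 0.62 when each library was made to add up to one total. Cdkn1c (p57) was listed at 0 in all 11 cells. Over the 26 genes of the list of brakes and D cyclins, 7 were at least 1 higher in the green cells (Cdkn1a, Cdkn1b, Cdkn2d, Rbl1, Mdm2, Ccng2 and Klf4). In the purple cells 5 were at least 1 higher (Gadd45b, Btg2, Gas6, Sesn1 and Tob1). These are shares of 26.9% and 19.2%, against 17.0% and 12.5% of all genes tested. The list median was 0.08, against 0.03 for all genes tested, and it turned to -0.31 without mMSC3 and to -0.43 when each library was made to add up to one total.

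The D cyclins, which carry growth signals to the cycle in G1, leaned toward the purple cells or did not differ by 1. Ccnd2 had 88.4, 61.1, 66.9, 76.6 and 98.4 FPKM in the green cells and 89.1 FPKM (lowest), 159 FPKM (median) and 242 FPKM (highest) in the purple cells, a difference of -0.95 (range -1.10 to -0.81). A single pair of cells overlapped, mMSC14 above mMSC7. Ccnd1 had 20.8 to 83.0 FPKM against 38.0 to 219 FPKM (-0.87, range -1.12 to -0.56), and Ccnd3 differed by 0.49 (range -0.23 to 1.07), a direction not stable to leaving out 1 cell. The purple cells thus had fewer transcripts of the 6 proliferation lists, though not none. They had 55 to 82 of the 168 genes at 1 FPKM or more, against 151 to 155 in the green cells. Transcripts of the D cyclins were present in all purple cells except Ccnd3 in mMSC13. Rest in G0 and passage through G1 cannot be told apart with these values.

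Every purple cell was above every green cell for 24 genes, 0.262% of those tested. Whether a number this small differs from chance was not tested. Their differences were smaller (median -2.05, against 3.82 for the 142 genes in the opposite order), and 22 of them were in none of the lists. Kdm5b, a demethylase of histone H3 lysine 4, led with -3.52 (range -3.69 to -3.33). It had 1.34, 0, 0, 0.661 and 0.833 FPKM in the green cells and 6.82 FPKM (lowest), 13 FPKM (median) and 23.5 FPKM (highest) in the purple cells. Rnf126, a ubiquitin ligase, was listed at 0 in all green cells and had 7.41 to 30.2 FPKM in the purple cells, and Lyrm5 and Nlgn2 were also listed at 0 in all green cells, with 1.75 to 15.3 and 1.74 to 9.08 FPKM in the purple cells. The lowest purple values were 6.82 FPKM for Kdm5b, 7.41 FPKM for Rnf126, 1.75 FPKM for Lyrm5 and 1.74 FPKM for Nlgn2.

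The genes described next were chosen from the 24 for their known roles and stand for no tested group. Igfbp7, a secreted binding protein of insulin-like growth factors, had 0, 24.9, 0, 27.8 and 11.9 FPKM in the green cells and 32.4 FPKM (lowest), 52.7 FPKM (median) and 165 FPKM (highest) in the purple cells. Timp3, an inhibitor of matrix metalloproteinases that stays bound to the matrix, had 193, 116, 264, 258 and 69.1 FPKM in the green cells and 484 FPKM (lowest), 746 FPKM (median) and 909 FPKM (highest) in the purple cells. It was detected well in every cell, its medians differed 3.86-fold and its difference was -2.16 (range -2.34 to -1.85). Ly96, the partner of Toll-like receptor 4 in sensing lipopolysaccharide, had 0 to 35.7 FPKM against 80.1 to 127 FPKM. Itga11, a collagen receptor of mesenchymal cells, had 0 to 1.99 FPKM against 2.03 to 52.3 FPKM, so that the lowest purple cell, mMSC3, was only just above the highest green cell. Fstl1, a secreted glycoprotein named after its values were seen, was the most abundant of the 24, with 315, 638, 652, 584 and 966 FPKM in the green cells and 992 to 1713 FPKM in the purple cells (-1.09, range -1.27 to -0.86).

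Other genes of the 24 had a range of roles. Rasa1, which switches off Ras, had 1.08 to 4.80 FPKM in the green cells and 5.66 to 41.3 FPKM in the purple cells. Jak1, the kinase of many cytokine receptors and named after its values were seen, had 9.54, 21.6, 21.4, 20.7 and 9.86 FPKM in the green cells and 42.1 to 63.9 FPKM in the purple cells (-1.80, range -1.92 to -1.62), among the narrowest spreads of these genes. Cltc, the clathrin heavy chain of coated vesicles, had 18 to 58.7 FPKM against 68.0 to 127 FPKM. Abhd5, an activator of triglyceride breakdown, had 0 to 2.64 FPKM against 2.66 to 22.3 FPKM, and Pigp, which acts in the synthesis of lipid anchors for surface proteins, 16.4 to 63.0 FPKM against 75.7 to 220 FPKM. The long noncoding RNA Tug1, also named after its values were seen, had 29.0 to 80.0 FPKM against 84.7 to 277 FPKM. The remaining leading genes were Lsm10, a component of the U7 particle that processes histone transcripts (0 to 53.6 against 55.6 to 212 FPKM), Lynx1 (0 to 4.84 against 5.91 to 29.2 FPKM), Prorsd1 (0 to 4.75 against 4.89 to 12.2 FPKM) and Srgap3 (0 to 1.49 against 1.78 to 12.5 FPKM).

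**Figure D5:**
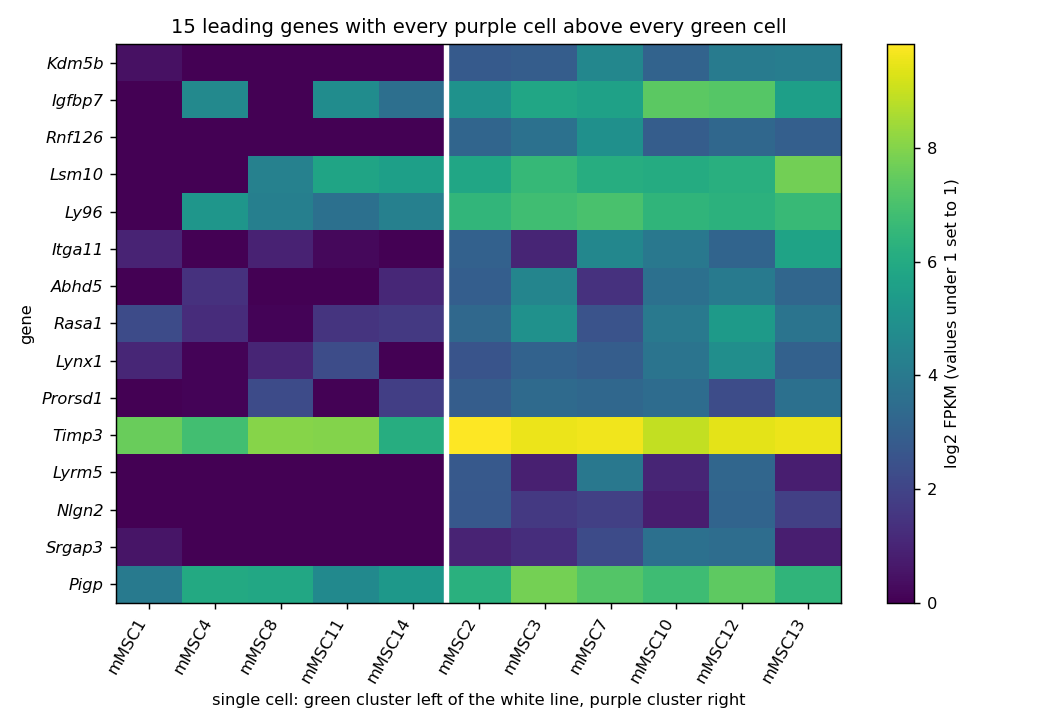
Heat map of log2 FPKM (colour, values under 1 FPKM set to 1) of the 15 genes with the largest difference among those for which every purple cell was above every green cell; rows are genes and columns are the 5 green and 6 purple cells. Timp3 was bright in all 11 cells (69.1 to 264 FPKM in green, 484 to 909 FPKM in purple), and Rnf126, Lyrm5 and Nlgn2 were listed at 0 in all green cells.

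Most matrix genes did not differ by 1 between the clusters. Of 40 genes over the limit, 8 (20%, against 12.5% of all genes tested) were at least 1 higher in the purple cells (Col1a1, Col6a1, Col6a2, Col6a3, Col12a1, Postn, Timp3 and Serpinf1). In the green cells 1 was, Ctgf (2.5%, against 17.0%). The list median was -0.50 (range -0.67 to -0.32) against 0.03 for all genes. Timp3 alone had every purple cell above every green cell. Postn, a matrix protein of connective tissue, had 11.3, 1.24, 218, 227 and 105 FPKM in the green cells and 70.6 FPKM (lowest), 249 FPKM (median) and 460 FPKM (highest) in the purple cells, so that its difference of -2.58 (range -3.24 to -1.36) rested largely on mMSC1 and mMSC4. Col1a1, the main collagen chain of bone, had 30.8 to 185 FPKM against 95.9 to 385 FPKM (-1.34, range -1.65 to -1.0).

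In the secretory and metabolic lists most genes did not differ by 1. Of 27 growth factor and cytokine genes, 6 were at least 1 higher in the purple cells (Pdgfa, Gdf15, Csf1, Il6, Ptn and Clcf1) and 1 in the green cells (Vegfb), with a median of -0.45 (range -0.50 to -0.19). The counts were 5 purple and 1 green of 31 for lysosome genes (median -0.26), 6 and 3 of 43 for vesicle transport (median -0.21) and 6 and 2 of 33 for lipid and cholesterol synthesis (median -0.45, range -0.67 to 0.04). The share of genes at least 1 higher in the purple cells was 22.2% for growth factors, 16.1% for the lysosome, 14% for vesicle transport and 18.2% for lipid synthesis, against 12.5% of all genes tested. The share at least 1 higher in the green cells was 3.7%, 3.23%, 6.98% and 6.06% in the same order, against 17.0% of all genes tested. For immediate early genes (median 0.25), stress genes (-0.02) and ribosome biogenesis (0.26) the direction turned under one of the other scalings.

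Genes that mark MSCs and their lineages were measured in both clusters. Of 13 lineage genes over the limit, 5 (38.5%, against 12.5% of all genes tested) were at least 1 higher in the purple cells (Alpl, Wisp2, Sox9, Cebpb and Tubb3). In the green cells 1 was, Nr4a2 (7.69%, against 17.0%). Of 16 MSC surface markers, 3 (18.8%, against 12.5%) were at least 1 higher in the purple cells (Ly6a, Pdgfra and Cd24a) and none in the green cells. Ly6a (Sca-1), a surface marker of mouse MSCs, had 167, 1607, 561, 538 and 637 FPKM in the green cells and 435 FPKM (lowest), 1661 FPKM (median) and 3585 FPKM (highest) in the purple cells, a difference of -1.34 (range -1.73 to -0.91) with overlap. Sox9, the regulator of cartilage formation, had 50.5, 74.4, 20.6, 55.9 and 5.89 FPKM in the green cells and 68.3 FPKM (lowest), 135 FPKM (median) and 353 FPKM (highest) in the purple cells (-2.14, range -2.46 to -1.55), and only mMSC4 was above a purple cell, mMSC12. Runx2, the regulator of bone formation, did not differ by 1 (3.61 to 27.0 against 6.47 to 33.7 FPKM), nor did Gata6 (0 to 97.8 against 2.47 to 40.6 FPKM). Nr4a2, an orphan nuclear receptor induced by many stimuli, was low but above 1 FPKM in all green cells (1.08 to 15 FPKM) and at 0 to 1.34 FPKM in the purple cells. Cebpb, a regulator of fat cell formation, differed by -1.14, but this reversed to 0.12 when mMSC1 was left out, because mMSC1 and mMSC2 were both listed at 0 and the other 9 cells ran from 38.5 to 413 FPKM.

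Contractile and inflammatory genes overlapped between the clusters. Acta2, the actin of smooth muscle, had 33.5 to 2222 FPKM in the green cells and 122 to 1933 FPKM in the purple cells (-0.67, range -1.26 to 0.26). Tagln, another smooth muscle gene and also chosen with its values in view, had 249 FPKM in mMSC14 and was listed at 0 in the other 4 green cells, against 3.45 to 286 FPKM in the purple cells. Of the 15 contractile genes over the limit, 2 (13.3%, against 12.5% of all genes tested) were at least 1 higher in the purple cells, Tagln and Actn1. In the green cells 1 was, Tpm2 (6.67%, against 17.0%), and the list median was -0.30. Ccl2, the chemokine that attracts monocytes, had 553, 393, 1001, 911 and 463 FPKM in the green cells and 706 FPKM (lowest), 2388 FPKM (median) and 14527 FPKM (highest, mMSC10) in the purple cells, a difference of -1.95 (range -2.30 to -1.43). Il6 was above 0 in mMSC4 and mMSC11 of the green cells and in mMSC3, mMSC7, mMSC12 and mMSC13 of the purple cells, with its highest value, 204 FPKM, in mMSC11. Over the 16 chemokine and inflammation genes, 3 (18.8%, against 17.0% of all genes tested) were at least 1 higher in the green cells and 4 (25%, against 12.5%) in the purple cells.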

How the data were processed

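The authors aligned reads with TopHat2 (2.0.12) to mm10, with an mm10 gene annotation file by their methods, and estimated FPKM with Cufflinks (2.2.1), per the submitters' processing notes. The deposited FPKM values of 23284 genes were used as they stand. The 759 symbols starting Mir or Snor were left out. FPKM below 1 was raised to 1 ahead of the log2 step, genes with 3 or more of the 11 cells at 1 FPKM or above were compared (9150), and a difference of mean log2 FPKM of 1 was counted. The deposited table holds no read counts and the study's read totals were not used here, so no precision was computed from depth.

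Cluster membership came from the study. Members, gene lists and alternatives were chosen with earlier results of these data known. No test was run, because the clusters were formed on these values and each cell type is 1 sample. Genes were named as the 15 with the largest difference in each direction among those with no overlap, list genes with no overlap, and a fixed set (such as Top2a, Pcna, Cdkn1a, Ccnd2 and Sox9); exceptions are marked. Promoters came from RefSeq (GRCm38.p6), first listed window per gene, symbols matched through synonyms. The comparison was checked on simulated data for well-expressed genes without zeros, so the check does not cover genes near the limit of 1 FPKM. Alternatives changed the log scale, the limits, the scaling and the cells. Python 3.11.15, pandas 2.3.3, numpy 2.4.6 and matplotlib 3.10.9 were used.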

Additional observations from a re-analysis of the deposited data

Results flagged for a closer look

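Within each cluster, 190 sets of 5 or 6 values (the list levels, and the named genes with every cell of the cluster at 1 FPKM or more) were searched for a single cell whose gap to the nearest other cell was large against the range of its cluster (Dixon's 95% critical value). For normally distributed values, chance flags about 1 in 20 groups. That rate does not hold where 1 cell alone is above 0, as in the endothelial and adipocyte lists, because such a cell is always flagged. In all, 18 groups were flagged, a number that was not tested against chance. No explanation was tested for any of them.

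Among proliferation genes, mMSC10 was high for a purple cell in the licensing list (2.63 against 1.40 for the next cell, mean log2 FPKM) and in Mcm4 (5.22 against 3.04, log2 FPKM), and mMSC2 was high in the mean of Top2a and Mki67 (1.65 against 0.48), all of it from Top2a. In the green cells, mMSC11 was high for Aurkb (6.61 against 4.32) and Ckap2l, a spindle protein (6.80 against 5.90), mMSC1 was high for Dbf4, the activator of the kinase that fires replication origins (6.44 against 5.20), and mMSC14 for Tipin, a fork protection protein (8.64 against 7.57). Low green values were found for Fbxo5, an inhibitor of cyclin destruction, in mMSC4 (1.16 against 5.03) and Racgap1, a cytokinesis protein, in mMSC1 (4.27 against 5.13), and a low purple value for Dek, a chromatin protein, in mMSC13 (1.83 against 4.03).

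Among other values, Rnf126 was high in mMSC7 (4.92 against 3.65) and Cltc in mMSC2 (6.99 against 6.42). The growth factor list was high in mMSC12 (3.17 against 2.74), and the household list was low in mMSC13 (8.78 against 9.22). In mMSC11 the lists of chemokines (2.73 against 2.59), macrophage markers (1.09 against 0.66) and adipocyte markers (1.25 against 0) were highest of the green cells, and the endothelial markers were above 0 in mMSC13 alone (0.57).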

How the results depend on the processing

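Results were recomputed under 20 other settings and 2 more added after the data were seen, of which 11 left out 1 cell each. No paired analysis was possible because the clusters share no replicate numbers and no test was run. List medians were computed in all but 3 of these settings (a difference of 2, and both that leave out 2 green cells), and in the rest the median of each of the 6 proliferation lists stayed higher in the green cells. Leaving out 1 cell gave 1550 to 1631 genes at least 1 higher in the green cells, 1204 to 1293 in the purple cells, and 154 to 195 and 30 to 44 genes without overlap; the last was lowest without mMSC7 and highest without mMSC4 or mMSC12, and fewer cells separate more easily. List medians then ran from 3.20 to 3.69 (licensing), 3.05 to 3.67 (fork), 1.14 to 1.74 (nucleotides), 2.99 to 3.55 (cyclins and kinases), 4.17 to 4.42 (spindle) and 2.53 to 3.32 (chromatin).

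With values under 10 FPKM set to 10, the 4 counts were 388, 217, 89 and 12, and the list medians, in that order, 1.46, 1.35, 0.44, 0.85, 1.58 and 1.64. With every library made to add up to one total, the counts were 862, 2757, 73 and 105 and the list medians 2.55, 2.45, 0.81, 2.66, 3.94 and 2.16; the sum of all FPKM reached 2529610 in mMSC1 against 632082 as the median of the green cells without Mir and Snor symbols. The same scaling without those symbols gave 3.57 for cyclins and kinases, 4.90 for the spindle and 3.18 for chromatin. Differences of medians gave 3.93 for licensing, 3.47 for the fork, 3.85 for cyclins and kinases, 4.68 for the spindle and 3.28 for chromatin. A difference of 2 instead of 1 left 464 and 214 genes, 13 of the latter without overlap. Without the 2 green cells with the fewest genes, 301 and 86 genes had no overlap, and 294 and 79 without mMSC1 and mMSC8, the green cells whose lowest values were highest (added later). Of 2242 values of named genes under the alternatives, 125 moved by more than 1 SD. A reversal was counted only for genes whose main difference was at least 1 in size. Of these, 1 was found, Cebpb, which ran from -2.38 without mMSC2 to 0.12 without mMSC1. Genes with smaller differences also changed sign under some settings, among them Acta2, Ccnd3, Gata6 and Gapdh.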
